A study of Mus musculus with 6 samples.

Results

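The genes described here are the ligands and receptors of the tumour necrosis factor (TNF) superfamily in double-positive (DP) thymocytes, the thymic precursors of T cells that carry both CD4 and CD8. Members were probe sets paired with 1 gene symbol that begins with Tnfsf or Tnfrsf or is Fas, Fasl, Cd27, Cd40, Cd40lg, Cd70, Ltbr, Lta, Ltb, Tnf or Eda2r. The rule found 40 genes, each with 1 probe set, among 19938 genes with a probe set of their own. They comprise 15 ligands and 25 receptors. The ligands Tnfsf12 and Tnfsf13 had no probe set paired with either alone and were not analysed here.

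Thymocytes came from C57BL/6 mice aged 3 weeks, given no treatment. The wild-type (WT) mice gave 3 arrays, and another 3 came from mice labelled Hdac3 KO. Hdac3 encodes the histone deacetylase of the NCoR and SMRT corepressor complexes. The knockout is named after Lck as well, a kinase gene whose promoter is often used to drive Cre in early T cells. The deleted part of Hdac3, the driver of the deletion and whether the WT mice carry Cre or a floxed allele are unstated in the labels used here. RNA was pooled from 2 mice of each genotype, and which mice went into which array is not stated, so p-values measure how these arrays vary, which may be partly technical. All values are log2 signals, and a difference is KO minus WT with its standard error (SE) and limma's Benjamini-Hochberg adjusted p over all 23410 probe sets tested. A gene is called when that adjusted p is under 0.05.

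Hdac3 had log2 signals of 9.40, 9.42 and 9.44 in WT against 8.28, 8.32 and 8.32 in KO. The KO signal was 46.2% of WT (95% interval 40.5% to 52.6%), which speaks of the probe set and not of the protein. The 8 measured markers of DP cells, among them Cd4, Cd8a and Rag1, all had signals above the median of the probe sets tested, and 0 of them were called or passed an unadjusted p of 0.05 (limma). Signal was compressed on the KO arrays, whose interquartile ranges of 3.06 to 3.25 lay below the 3.29 to 3.49 of the WT arrays. The median difference also varied with signal. Over 10 bins of rising signal it was 0.02 in the dimmest, highest at 0.16 in the fifth, lowest at -0.17 in the eighth and -0.04 in the brightest, and the bin's median is given beside a member where it bears on the value.

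TNF superfamily ligands are mostly membrane-bound trimers that can be shed, and they cluster receptors on the same or a neighbouring cell. Receptors with a death domain recruit FADD or TRADD and can start caspase-driven death, while the others bind TRAF adaptors and signal through NF-kB and JNK. In the thymus the lymphotoxin, RANK and CD40 branches carry signals from thymocytes to medullary epithelium, and Fas, TRAIL and GITR have been studied in thymocyte selection and in regulatory T cells.

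Of the 40 members, 4 were called. Tnf and its chromosomal neighbour Lta rose in KO, and the death ligand gene Tnfsf10 (TRAIL) and the receptor gene Tnfrsf18 (GITR) fell. Across all probe sets tested 5.79% were called, 1.75% higher and 4.04% lower. WT and KO values lay fully apart for 15 members, 11 higher and 4 lower in KO, where 30.0% of all probe sets did not overlap. Differences were positive for 28 of 40 members with a median of 0.14, against 53.1% of all probe sets with a median of 0.02. Scaling moved both counts. After quantile normalization 25 members and 50.8% of all probe sets were positive, after cyclic loess normalization 24 members and 49.5%, and after median centring 23 members and 34.6%.

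**Figure D1:**
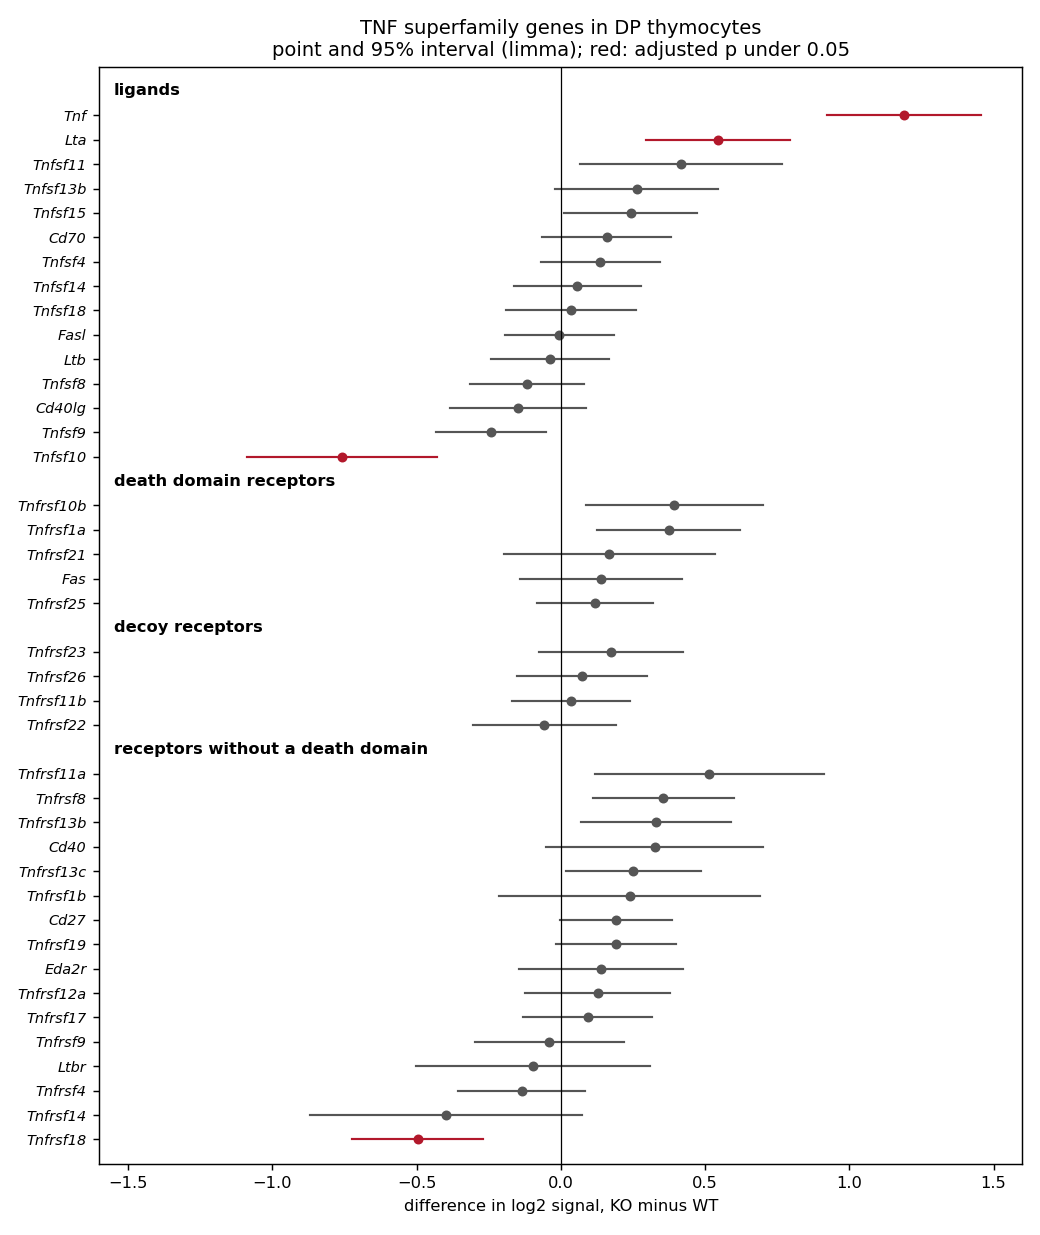
Difference in log2 signal between KO and WT (horizontal axis) for each of the 40 members, grouped by role, with points for the estimate and bars for the 95% interval from limma. Tnf and Lta lie to the right of 0 and Tnfsf10 and Tnfrsf18 to the left, in red as the 4 called members. Most other intervals cross 0.

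Tnf, the founding cytokine of the family, showed the largest difference of the 40. Its probe set (10450501) read 5.86, 5.97 and 6.23 in WT and 7.13, 7.35 and 7.15 in KO. Every KO array lay well above every WT array, and the gap between the groups was wider than the spread within either. The mean went from 6.02 ± 0.19 to 7.21 ± 0.12 (SD, n = 3 each), a difference of 1.19 (SE 0.12, limma adjusted p = 0.00114) or 2.28-fold. Its 95% interval was 0.92 to 1.46. Tnf was called in all 16 alternative settings, with differences of 1.09 to 1.30 and adjusted p of 9.86e-05 to 0.00867. Probe sets of its signal bin had a median difference of -0.14, opposite in sign to that of Tnf.

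Lta encodes lymphotoxin alpha, a secreted ligand of the same receptors as TNF. Its values were 5.00, 4.89 and 5.07 in WT and 5.63, 5.65 and 5.33 in KO (probe set 10450508). The groups again did not overlap, and KO array 3 was the lowest of the KO arrays. The difference was 0.54 (SE 0.11, 95% interval 0.29 to 0.80, limma adjusted p = 0.0256), or 1.46-fold. Lta sat in a bin with a median difference of 0.16, and its call was lost after quantile normalization (0.44, adjusted p = 0.0601) and cyclic loess normalization (0.41, adjusted p = 0.0626). It was also lost without WT array 1, WT array 2, KO array 1 or KO array 2 (differences 0.49 to 0.65 and adjusted p up to 0.0972 over the 6 leave-one-out fits).

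Ltb, the membrane anchor of the lymphotoxin alpha-beta trimer, stands on the other side of Tnf. Its signals of 8.59, 8.59 and 8.72 in WT overlapped with 8.53, 8.62 and 8.64 in KO. The difference of -0.04 had a 95% interval of -0.24 to 0.17 (limma adjusted p = 0.822), and it turned positive after quantile (0.09) and cyclic loess normalization (0.08). The lymphotoxin pair thus differed in its calls, though Lta and Ltb were not tested against each other.

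The order of genes on chromosome 17 in RefSeq GRCm38.p6 is Aif1, Lst1, Ltb, Tnf, Lta, Nfkbil1, Atp6v1g2 and Ddx39b. Next to Lta, Nfkbil1, an inhibitor-of-NF-kB-like gene, had signals of 7.04, 7.01 and 7.13 in WT and 7.31, 7.50 and 7.66 in KO. These did not overlap, but the difference of 0.43 (SE 0.11) narrowly missed the threshold (limma adjusted p = 0.0503), and it was called in 8 of 16 alternative settings, with adjusted p of 0.0227 to 0.159 over all of them. Nfkbil1 and Atp6v1g2 overlap in the annotation. Beyond these, Atp6v1g2 differed by 0.12, Ddx39b by 0.05, Lst1 by 0.12 and Aif1 by -0.32, and none was called. Within these 8 genes, the positive differences with intervals above 0 were those of 3 in a row, Tnf, Lta and Nfkbil1.

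Tnfrsf18 and Tnfrsf4 (OX40) are also neighbours, on chromosome 4, and both encode costimulatory receptors. The genes beside Tnfsf10 on chromosome 3 are Nceh1 and Ghsr, with differences of -0.24 and 0.11. In all, 16 genes that are no members lie within 3 places of a called member. Of these, 0 of 16 were called (limma), where 5.79% of all probe sets tested were, so that count does not set them apart. An unadjusted p under 0.05 was reached by 7 of them and by 25.2% of all probe sets tested. This comparison with neighbours was chosen after the values of the called members were seen.

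**Figure D2:**
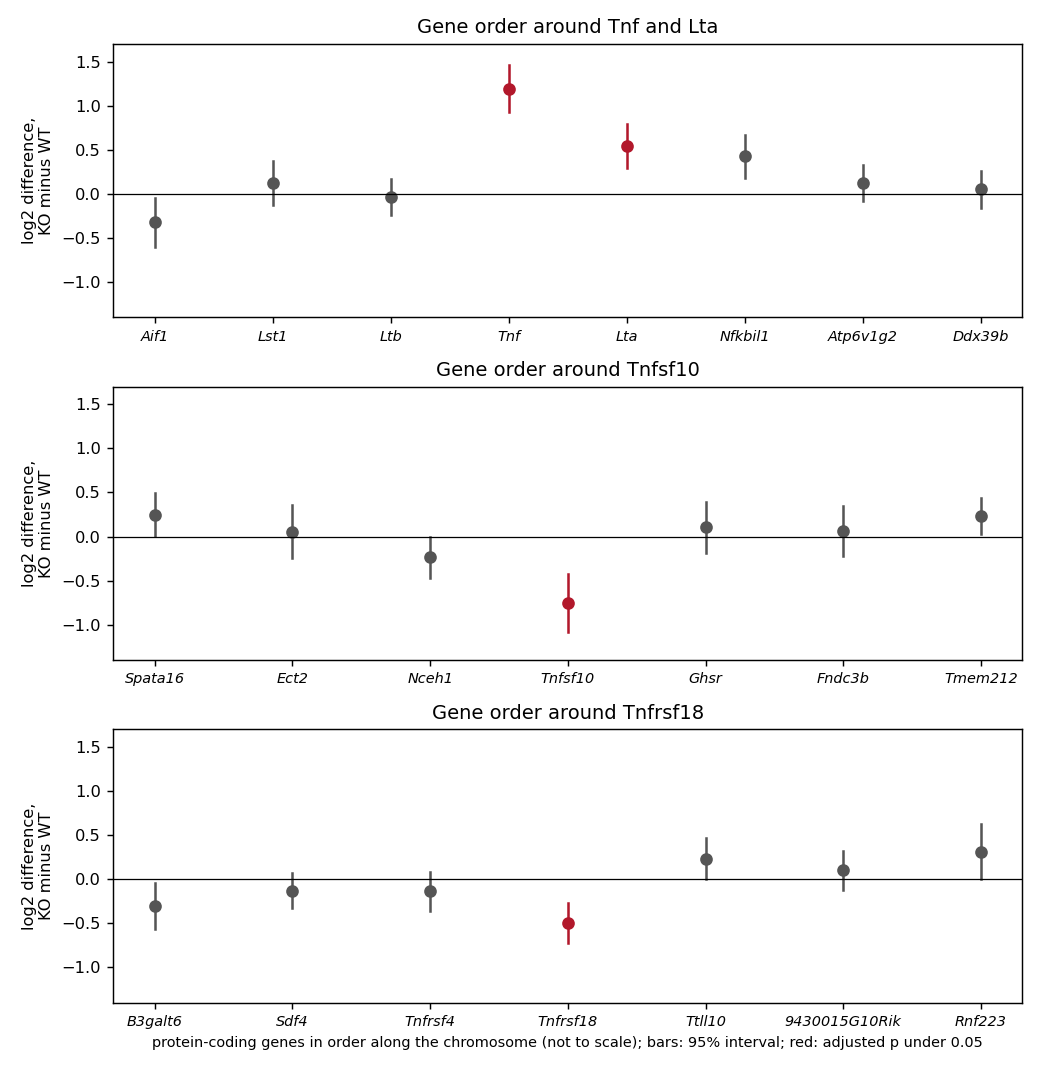
Difference in log2 signal between KO and WT (vertical axis) for protein-coding genes in their order along the chromosome, not to scale, around Tnf and Lta, around Tnfsf10 and around Tnfrsf18. Bars are 95% intervals and red marks called genes. Tnf, Lta and the uncalled Nfkbil1 lie above 0 side by side, and Tnfsf10 and Tnfrsf18 lie below 0. No other gene shown around Tnfsf10 and Tnfrsf18 was called. Among these neighbours the intervals of Nceh1 and B3galt6 lie below 0, and those of Spata16, Tmem212 and Rnf223 lie above 0.

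The 250 bases before the start sites of Tnf, Lta and Ltb, and of the genes that fell, Tnfsf10 and Tnfrsf18, are shown because they are the start-site regions of the called members and of the Ltb gene between which the calls differ. They are RefSeq sequences of GRCm38.p6. Tnf lies at chr17:35202008-35202257 and Lta at chr17:35205352-35205601, both on the minus strand. Ltb lies at chr17:35194257-35194506, Tnfsf10 at chr3:27316827-27317076 and Tnfrsf18 at chr4:156026072-156026321, all on the plus strand. Each is printed 5′ to 3′ on the gene's strand, with capitals for matches to any of 4 motifs.
Tnf: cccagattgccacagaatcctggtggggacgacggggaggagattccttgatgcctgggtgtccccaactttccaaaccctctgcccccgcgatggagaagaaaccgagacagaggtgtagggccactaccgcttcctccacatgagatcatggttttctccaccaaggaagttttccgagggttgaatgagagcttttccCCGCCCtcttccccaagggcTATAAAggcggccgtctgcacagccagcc
Lta: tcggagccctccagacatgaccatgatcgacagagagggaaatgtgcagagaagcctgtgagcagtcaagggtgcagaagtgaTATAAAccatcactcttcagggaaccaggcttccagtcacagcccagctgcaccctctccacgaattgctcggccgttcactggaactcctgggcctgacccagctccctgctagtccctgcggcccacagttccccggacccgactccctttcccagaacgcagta
Ltb: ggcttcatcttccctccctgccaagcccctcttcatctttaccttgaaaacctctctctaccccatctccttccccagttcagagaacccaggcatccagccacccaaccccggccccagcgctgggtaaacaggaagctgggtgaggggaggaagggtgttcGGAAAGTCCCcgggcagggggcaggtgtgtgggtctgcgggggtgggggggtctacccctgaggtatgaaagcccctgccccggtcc
Tnfsf10: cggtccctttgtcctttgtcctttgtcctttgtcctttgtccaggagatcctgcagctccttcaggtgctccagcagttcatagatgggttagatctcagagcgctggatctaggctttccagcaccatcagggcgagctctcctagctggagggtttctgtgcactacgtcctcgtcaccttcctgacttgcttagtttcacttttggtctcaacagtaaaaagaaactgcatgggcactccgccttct
Tnfrsf18: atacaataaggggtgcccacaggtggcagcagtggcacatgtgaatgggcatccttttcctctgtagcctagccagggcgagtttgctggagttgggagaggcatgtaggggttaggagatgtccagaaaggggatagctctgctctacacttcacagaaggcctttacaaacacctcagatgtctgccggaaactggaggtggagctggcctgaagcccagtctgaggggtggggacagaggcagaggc

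The motifs were searched on both strands, and no match in these 5 windows overlapped another motif. The TATA box TATAAA was found 29 to 24 bases before the start of Tnf and 167 to 162 bases before that of Lta, and 12.4% of all 32851 windows of this length hold it. Tnf also holds the GC box GGGCGG on the opposite strand, a motif of 32.7% of windows. An NF-kB motif, GGGA and CC with any 4 bases between them, was found 87 to 78 bases before the start of Ltb and is held by 17.6% of windows. The AP-1 motif TGANTCA, in 6.75% of windows, was found in none of the 5, and Tnfsf10 and Tnfrsf18 held none of the 4. The table gave 35 windows for 31 of the 40 members, of which 9 held the NF-kB motif, 5 the AP-1 motif, 7 the TATA box and 15 the GC box. A match describes letters in this window and is neither a site nor a cause. Windows of Cd40lg, Cd70, Tnfsf4, Tnfsf9, Tnfrsf10b, Tnfrsf11b, Tnfrsf22, Tnfrsf26 and Cd40 were not analysed here.

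Tnfsf10 was the ligand gene that fell. TRAIL, its product, triggers apoptosis through TRAIL receptors. Values of probe set 10491091 were 6.25, 5.81 and 5.69 in WT and 5.28, 5.01 and 5.19 in KO. WT array 1 was the highest, and the lowest WT array still exceeded the highest KO array. The difference was -0.76 (SE 0.15, 95% interval -1.09 to -0.43, limma adjusted p = 0.0198), so the KO signal was 59.1% of WT. Its bin had a median of 0.16, and the difference was -0.83 after quantile normalization. The call was lost without KO array 2 (-0.69, adjusted p = 0.0779) or KO array 3 (-0.77, adjusted p = 0.0658), and the difference was -0.59 without WT array 1. Tnfsf10 and Lta were both below the median signal of tested probe sets, so they dropped out where dim probe sets were left out.

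The other 12 ligand genes were not called. Tnfsf9, the ligand of the costimulatory receptor encoded by Tnfrsf9, had signals of 4.97, 5.00 and 5.01 in WT and 4.77, 4.78 and 4.69 in KO. The groups were tight and did not overlap, and the difference of -0.24 (SE 0.09) was called after quantile (-0.36, adjusted p = 0.0442) and cyclic loess normalization (-0.38, adjusted p = 0.0359) but not as deposited (limma adjusted p = 0.122). Over all alternatives its adjusted p was 0.0359 to 0.286. Tnfsf8, the CD30 ligand, was slightly lower on each KO array, at 3.49, 3.39 and 3.55 against 3.59, 3.59 and 3.59 (difference -0.12, limma adjusted p = 0.43). Tnfsf15, a ligand of the death receptor DR3, was slightly higher, at 5.21, 5.42 and 5.52 against 5.14, 5.12 and 5.16 (0.24, limma adjusted p = 0.182).

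Fasl, the ligand of Fas and an effector of activated and cytotoxic T cells, was level between genotypes. It read 3.87, 3.88 and 3.89 in WT and 3.91, 3.85 and 3.85 in KO, with a 95% interval of the difference of -0.20 to 0.18. Cd40lg, the helper T cell ligand of CD40, read 3.89, 3.81 and 3.89 in WT and 3.54, 3.86 and 3.74 in KO (difference -0.15, limma adjusted p = 0.401), with KO array 1 the lowest. Cd70, the ligand of CD27, read 4.32, 4.46 and 4.51 in WT and 4.46, 4.67 and 4.64 in KO (difference 0.16, limma adjusted p = 0.34). These 3 probe sets lay below the median signal, where detection cannot be judged from the values used.

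Tnfsf11, which encodes RANKL, the signal for medullary epithelial cells, had the third largest positive difference among ligands. It was 6.29, 6.59 and 6.87 in WT and 6.83, 7.23 and 6.94 in KO, with WT array 3 inside the KO range (0.42, SE 0.16, limma adjusted p = 0.139). Its receptor gene Tnfrsf11a (RANK) was 5.12, 5.45 and 5.56 in WT and 6.30, 5.65 and 5.74 in KO, so the groups did not overlap but KO array 1 stood above the rest. The difference of 0.51 (SE 0.18) had a 95% interval of 0.12 to 0.91 and was not called (limma adjusted p = 0.114). Differences of the remaining ligand genes were 0.26 for Tnfsf13b (BAFF), 0.14 for Tnfsf4, 0.06 for Tnfsf14 (LIGHT) and 0.04 for Tnfsf18 (GITR ligand).

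All 5 receptor genes with a death domain had positive differences, from 0.12 to 0.39. Of these, 0 were called and 2 had an unadjusted p under 0.05 (limma). After cyclic loess normalization 4 of 5 were positive, the exception being Tnfrsf25 (DR3) at -0.01. Tnfrsf10b, Tnfrsf21 and Tnfrsf25 lay below the median signal, where 73.0% of all probe sets had positive differences. Their bins had medians of 0.16, 0.15 and 0.15. Tnfrsf1a, the TNF receptor that binds TRADD, read 9.04, 8.67 and 8.95 in WT and 9.23, 9.24 and 9.30 in KO. The KO arrays agreed closely and all exceeded the WT arrays. Its difference of 0.37 (SE 0.11, 95% interval 0.13 to 0.62) was not called (limma adjusted p = 0.0784), while 5 of 16 alternatives called it (differences 0.27 to 0.48, adjusted p 0.0318 to 0.209). Its bin had a median of -0.13.

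Tnfrsf10b, the mouse TRAIL receptor that signals death, was 5.78, 5.39 and 5.26 in WT and 5.86, 5.77 and 5.99 in KO. WT array 1 reached into the KO range, and the difference of 0.39 (SE 0.14) was not called (limma adjusted p = 0.118). It was called only without that array (0.54, adjusted p = 0.0496; adjusted p over the 14 alternatives that tested it 0.0496 to 0.313). Ligand and receptor of the TRAIL pair had differences of opposite sign, of which the ligand's was called. Fas, the best-known death receptor of lymphocytes, overlapped, with 9.25, 8.86 and 8.83 in WT and 9.15, 9.02 and 9.19 in KO (0.14, 95% interval -0.14 to 0.42, limma adjusted p = 0.507). Tnfrsf21 (DR6) differed by 0.17.

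**Figure D3:**
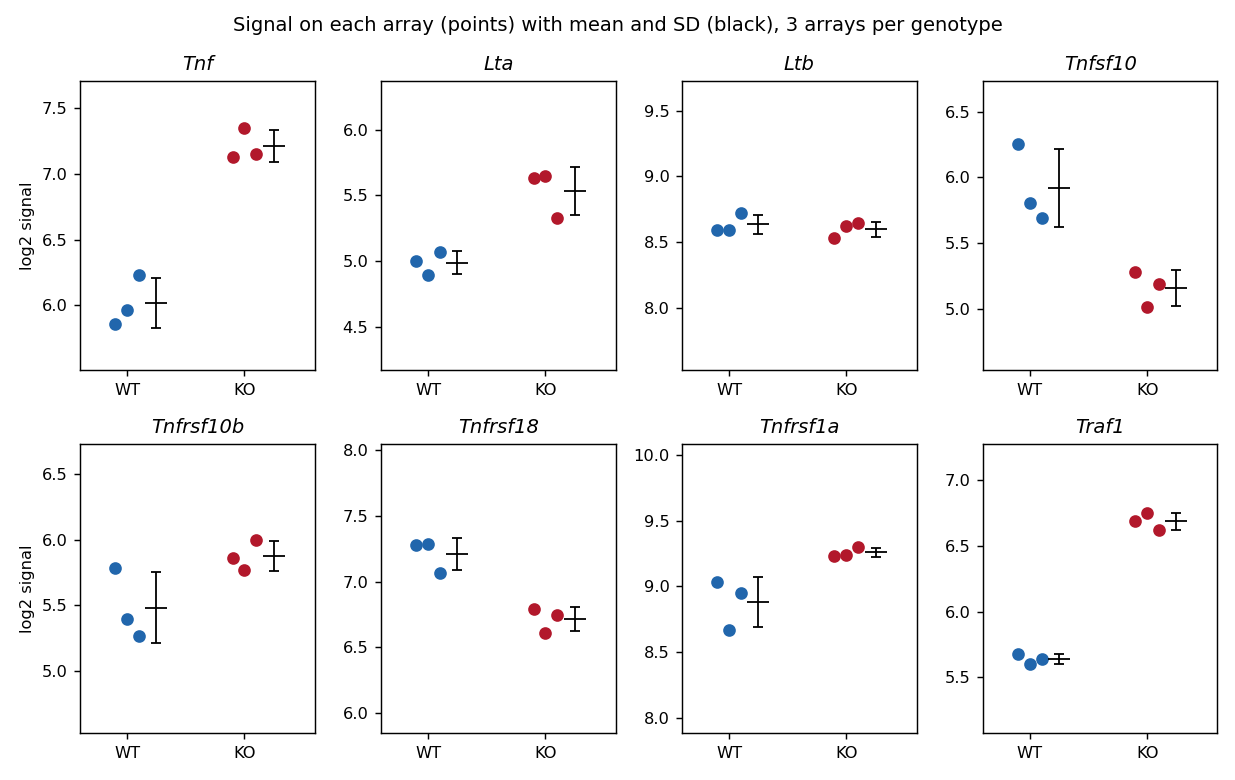
Log2 signal on each array (vertical axis, each panel spanning the same width on its own range) for 7 members and the adaptor gene Traf1, with WT in blue, KO in red, and mean and SD in black. The genotypes are apart for Tnf, Lta, Tnfsf10, Tnfrsf18, Tnfrsf1a and Traf1, and overlap for Ltb and Tnfrsf10b.

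Decoy receptors bind ligand without a signalling tail of full function. Tnfrsf11b (osteoprotegerin) binds RANKL, and Tnfrsf22 and Tnfrsf23 are mouse decoys for TRAIL. Tnfrsf26 is grouped with them because it lies next to Tnfrsf22 on chromosome 7, with Tnfrsf23 on the far side of Tnfrsf22. The 4 genes differed by -0.06 to 0.17. Of the 4, 0 were called (limma), also 0 at an unadjusted p under 0.05. Tnfrsf22, Tnfrsf23 and Tnfrsf26 are related copies, and the extent to which their probes cross-hybridise was not tested.

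Among the 16 receptors without a death domain, Tnfrsf18 was the one called. GITR, its product, is a costimulatory receptor that is high on regulatory and activated T cells. Its probe set (10511290) read 7.28, 7.29 and 7.07 in WT and 6.79, 6.61 and 6.75 in KO, without overlap. The difference was -0.50 (SE 0.10, 95% interval -0.72 to -0.27, limma adjusted p = 0.0251), and the KO signal was 70.9% of WT. Its bin had a median of -0.14, and the difference was -0.40 after quantile normalization (adjusted p = 0.0368). The call was lost without WT array 1, WT array 2, KO array 2 or KO array 3, with differences of -0.57 to -0.44 and adjusted p up to 0.0961 over the 6 leave-one-out fits.

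Tnfrsf4, the gene beside it, overlapped between genotypes, with 6.39, 6.21 and 6.39 in WT and 6.30, 6.14 and 6.15 in KO (-0.14, limma adjusted p = 0.409). Tnfrsf9, a costimulatory receptor of activated T cells, also overlapped, with 6.04, 6.24 and 6.17 in WT and 6.19, 6.24 and 5.89 in KO (-0.04, limma adjusted p = 0.853). These receptors accompany GITR on activated and regulatory T cells, and neither was called. Tnfrsf8 (CD30) was instead higher on each KO array, at 6.31, 6.00 and 6.17 against 5.82, 5.90 and 5.70. Its difference of 0.36 (SE 0.11) was not called (limma adjusted p = 0.085) and passed in 1 of 16 alternatives, that without dim probe sets (adjusted p = 0.0496, range over all 0.0496 to 0.232).

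Cd27, a costimulatory receptor carried by T cells from early in their development, had 9.82, 9.89 and 9.94 in WT and 10.07, 10.10 and 10.05 in KO. The groups did not overlap, yet the step of 0.19 (95% interval -0.0041 to 0.39) was not called (limma adjusted p = 0.207). Tnfrsf1b, the TNF receptor that recruits TRAF2 and TRAF1, had 6.37, 6.60 and 6.61 in WT and 6.52, 6.47 and 7.32 in KO. KO array 3 alone stood out, and the difference of 0.24 (limma adjusted p = 0.48) became -0.04 without it. Ltbr, the lymphotoxin beta receptor, which stromal cells carry, varied more within genotypes than between them, at 6.09, 5.49 and 6.16 in WT and 5.63, 6.07 and 5.76 in KO (-0.10, limma adjusted p = 0.766).

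Receptors of the B cell branch had positive differences that were not called. Tnfrsf13c, the BAFF receptor, read 6.32, 6.18 and 6.42 in WT and 6.49, 6.70 and 6.49 in KO, without overlap (0.25, limma adjusted p = 0.172). Tnfrsf13b (TACI) differed by 0.33, Cd40 by 0.33 and Tnfrsf17 (BCMA) by 0.09. The medians of their bins were 0.16, 0.16 and 0.12, and that of the bin of Tnfrsf13c was 0.05. The 7 measured B cell markers had median signals of 4.56 to 4.65 in WT and 4.59 to 4.73 in KO, with summed linear signals of 288 to 333 and 285 to 311, and 0 were called (limma, 0 at an unadjusted p under 0.05). Of the remaining receptors, Tnfrsf14 (HVEM) had the largest negative difference short of a call, -0.40 (limma adjusted p = 0.269), with a wide WT spread from 7.15 to 8.12. Tnfrsf19, Eda2r and Tnfrsf12a differed by 0.19, 0.14 and 0.13.

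Of the 40 members, 13 had an unadjusted p under 0.05 (limma), where 25.2% of all probe sets tested did, called ones included. Of the 36 members not called, 9 did, a share not set against that of uncalled probe sets. The 95% interval of the difference lay within a 1.5-fold change in either direction for 27 of 40 members, Fas, Fasl, Ltb, Cd27, Tnfrsf4 and Tnfrsf9 among them. For the other 13, the 4 called ones included, a change of 1.5-fold or more was within the interval. Fasl and other dim members of the 27 lay below the median signal, where detection cannot be judged from the values used. A narrow interval there need not mean an unchanged gene. Of the 40 members, 16 had a signal above the median of the probe sets tested. Their median difference was 0.13, against -0.09 for all such probe sets, and that of the 24 dimmer members was 0.14, against 0.10.

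Genes that act downstream of these receptors were read in lists of adaptors and kinases, of NF-kB genes and of sheddases. Traf1, the adaptor of the TNF receptor encoded by Tnfrsf1b and itself a known NF-kB target, rose most of the 53 measured. It read 5.68, 5.60 and 5.64 in WT and 6.69, 6.75 and 6.62 in KO, a clear separation with little spread in either group. The difference was 1.05 (SE 0.09, limma adjusted p = 0.000617), and it was called in all 16 alternatives (0.95 to 1.08, adjusted p 0.000107 to 0.00519).

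In the adaptor and kinase list 2 of 37 rose, 2 fell and 33 were not called. The list's median difference was -0.10, near the -0.09 of all probe sets above the median signal, where 34 of these 37 lay. Of those 11705 probe sets, 246 were called higher and 814 lower. Besides Traf1, Edaradd, the death-domain adaptor of the ectodysplasin receptor, rose from 7.54, 7.51 and 7.25 to 8.08, 8.04 and 7.95 (0.59, SE 0.11, limma adjusted p = 0.0145). It missed the threshold without KO array 2 (adjusted p = 0.0552). Its receptor gene Edar and ligand gene Eda, outside the rule for members, differed by 0.03 and 0.0050, and neither was called. Mapk8 (JNK1) fell from 8.46, 8.34 and 8.31 to 7.82, 7.78 and 8.04 (-0.49, SE 0.10, limma adjusted p = 0.0284), with its bin at a median of -0.17. Bid, which links caspase-8 to mitochondria, fell from 8.19, 8.25 and 8.25 to 7.80, 7.72 and 7.76 (-0.47, SE 0.09, limma adjusted p = 0.016). After quantile normalization neither Mapk8 (-0.35, adjusted p = 0.0721) nor Bid (-0.33, adjusted p = 0.0654) was called. The Mapk8 call was also lost without WT array 1, WT array 2, KO array 1 or KO array 2 (adjusted p up to 0.104) and that of Bid without WT array 2, KO array 2 or KO array 3 (adjusted p up to 0.0658).

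The core of the death-inducing complex was not called as deposited. Fadd, its adaptor, differed by -0.35 (limma adjusted p = 0.114), Casp8 by 0.21 (adjusted p = 0.244) and Cflar, which encodes the caspase-8 inhibitor cFLIP, by 0.34 (adjusted p = 0.0908). Cflar was called after quantile (0.46, adjusted p = 0.0307) and cyclic loess normalization (0.45, adjusted p = 0.0301; over all 16 alternatives 0.0171 to 0.247). Fadd was called after median centring (-0.46, adjusted p = 0.0469) and with array weights (-0.44, adjusted p = 0.0486; over all 16 alternatives 0.0469 to 0.296). Traf2 differed by 0.23 (limma adjusted p = 0.186) and was called in 1 of 16 alternatives, quantile normalization without dim probe sets (0.34, adjusted p = 0.0374; over all 0.0374 to 0.521).

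Among 12 NF-kB genes, Rel, the c-Rel subunit prominent in lymphocytes, rose from 7.80, 7.60 and 7.55 to 8.05, 8.26 and 8.01 (0.46, SE 0.11, limma adjusted p = 0.0434). Its groups did not overlap, but the call was lost in each of the 6 leave-one-out fits (adjusted p up to 0.14). The other 11 were not called, with Nfkb2 at -0.11 and the inhibitor gene Nfkbia at 0.07, and Nfkb1 and Chuk had no probe set of their own. Of the 4 sheddase genes, among them Adam17, which encodes the protease that releases soluble TNF and differed by -0.07, 0 were called (limma, 1 at an unadjusted p under 0.05).

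Markers of other cells were read beside the called members, since myeloid cells make TNF and regulatory T cells carry GITR. In such bulk samples fewer cells of a type and less RNA per cell cannot be told apart. Of 10 neutrophil markers 10 had positive differences and 0 were called (limma, 2 at an unadjusted p under 0.05). Their summed linear signal was 206 to 228 in WT and 238 to 696 in KO, and their median on KO array 2 was 5.67, against 4.09 to 4.44 on the WT arrays. The medians on KO arrays 1 and 3 were 4.27 and 4.38, inside the WT range. KO array 2 also had the highest Tnf signal, and the difference of Tnf without it was 1.12 (adjusted p = 0.00588). Of 9 macrophage and monocyte markers 7 were positive and 0 called (limma, 2 at an unadjusted p under 0.05), with summed signals of 291 to 331 in WT and 321 to 426 in KO. All 10 neutrophil markers and 8 of the 9 macrophage markers lay below the median signal of tested probe sets, where 73.0% of all probe sets had positive differences. The part of these cells in the Tnf and Lta results was not tested.

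Of 7 regulatory T cell markers Il2ra rose by 2.28 (limma adjusted p = 0.00326) and 6 were not called, with Foxp3 at 0.16. Differences of Itgae and Gpr83 were -0.29 and -0.20. The summed linear signal of the list was 283 to 307 in WT and 417 to 517 in KO, but without Il2ra it was 232 to 265 and 244 to 262. Of 6 genes listed for mature single-positive T cells, Il7r and Ikzf2 fell by 1.19 and 1.23 (limma adjusted p = 0.0056 and 0.0035). The other 4 were not called, with Ccr7 at 0.35, Ccr4 at 0.34, Klf2 at 0.20 and S1pr1 at -0.32. Ikzf2 (Helios) is no marker of these cells alone. Regulatory T cells carry it too, so its fall also belongs beside their list. The summed signal of the 6 genes was 690 to 801 in WT and 566 to 659 in KO. Without Ikzf2 it was 393 to 461 and 432 to 549. Of 8 markers of natural killer and innate lymphoid cells, which can carry TRAIL, 0 were called (limma, 1 at an unadjusted p under 0.05), with sums of 1001 to 1052 in WT and 852 to 1013 in KO. Most of that sum was Gata3, which T-lineage cells also express, and without it the sums were 199 to 223 and 198 to 232. Leaving out these 3 genes was chosen after the values were seen. Of 8 dendritic cell markers 7 were positive and 0 called (limma, 2 at an unadjusted p under 0.05), with sums of 227 to 253 in WT and 266 to 276 in KO. All 8 lay below the median signal, where 73.0% of all probe sets had positive differences. Of 8 markers of thymic epithelium, the cells that carry Ltbr and Cd40, Epcam fell by 0.37 (limma adjusted p = 0.0438) and 7 were not called, with sums of 336 to 387 and 371 to 400. The 3 measured erythroid markers also lay below the median signal and all had positive differences. Klf1 rose by 0.44 (limma adjusted p = 0.0474) and 2 were not called, with sums of 80 to 105 in WT and 104 to 123 in KO. The parts of these cell types in the falls of Tnfrsf18 and Tnfsf10 were not tested.

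**Figure D4:**
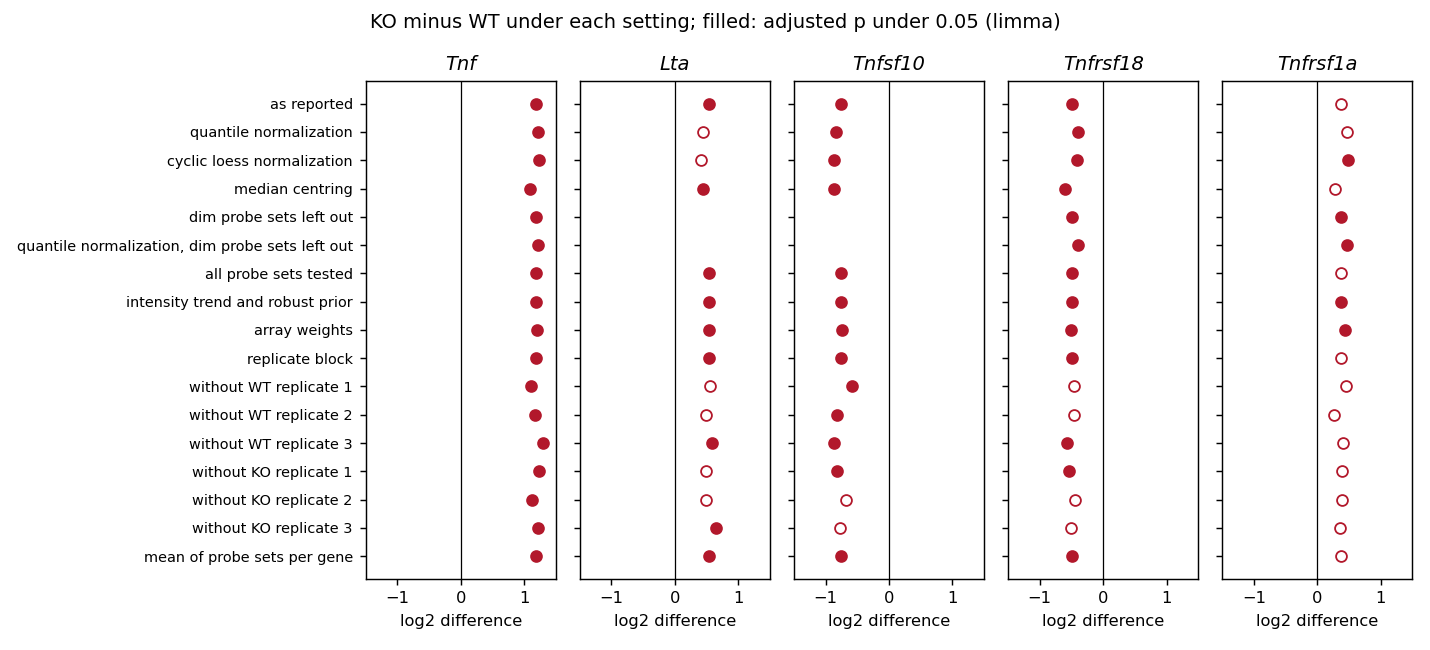
Difference in log2 signal between KO and WT (horizontal axis) for 5 members as reported and under 16 alternative settings (rows), filled where the adjusted p was under 0.05. Tnf is filled in every row, Lta, Tnfsf10 and Tnfrsf18 in some, and Tnfrsf1a mostly open; no point of a gene crosses 0, and Lta and Tnfsf10 have none where dim probe sets were left out.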

How the data were processed

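Expression was measured on 6 Affymetrix arrays, labelled with a sense-target kit for whole transcripts per the labels' protocols. The authors deposited a table with 1 value per probe set and array, taken here as log2 from its range of 1.94 to 13.98. How background, normalization and probe summary were handled is unstated in the labels, and no detection calls were used, which makes dim signals least sure. Precision is limited by the number of arrays (median SE 0.11).

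Probe sets were named through the platform annotation, and all 40 members matched by Entrez identifier the RefSeq genes of GRCm38.p6. Tests covered the 23410 probe sets annotated to a gene and used limma 3.58.1 in R 4.3.3 (lmFit and eBayes, 2 group means, two-sided). An exact test of 3 against 3 arrays cannot go below 0.1 and was not run. The fit was tested on simulated data. These held independent normal noise and no compression of the KO arrays, so that test cannot speak for the calls under such compression. For a signalling or marker gene with several probe sets the brightest over 6 arrays was used. Members, lists, tests and alternatives were chosen with earlier results of these data known.

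Named with their values are Hdac3, called members, up to 6 rises and 6 falls that did not overlap, called signalling genes and a fixed set of members and adaptors; others were named after their values were seen. Alternatives were quantile and cyclic loess normalization, median centring, a filter at the median signal of 5.77 (also with quantile normalization), all 28853 probe sets, an intensity trend with robust prior, array weights, a replicate block, each array left out, and averaged probe sets per gene.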

Additional observations from a re-analysis of the deposited data

How the results depend on the processing

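Over the 16 alternatives Tnf, Traf1 and Hdac3 kept their direction and call, and Lta, Tnfsf10 and Tnfrsf18 kept their direction in each one that tested them. The count of called members, 4 of 40, was 3 to 5 under settings with all arrays and 1 to 4 with 1 array left out. It was lowest, at 1, without KO array 2, and was 2 without WT array 2 or KO array 3. Where dim probe sets were left out, only 16 members were tested. The directions behind the count also changed, from 2 higher and 2 lower as deposited. Quantile normalization gave 1 higher and 3 lower, and leaving out dim probe sets gave 3 higher and 1 lower. Without KO array 2 or KO array 3, 0 members were called lower. Called signalling genes numbered 5 of 53, where 5.79% of all probe sets tested were called. They numbered 9 after median centring, with dim probe sets left out or with an intensity trend. With array weights, or with quantile normalization and no dim probe sets, they numbered 10. Where dim probe sets were left out, 48 signalling genes were tested, and 1812 of 11705 probe sets were called without renormalization. With 1 array left out the called signalling genes numbered 1 to 7. All probe sets called, 1355, became 2060 after median centring, 2285 with array weights, and 474 (without KO array 2) to 1946 (without WT array 3) with 1 array left out.

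Of 40 members 12 changed sign somewhere, none of them called in any setting. After quantile normalization these were Ltb (0.0909, also with dim probe sets left out), Tnfsf14 (-0.0575), Tnfsf18 (-0.049), Tnfrsf11b (-0.0792) and Tnfrsf17 (-0.0093). After cyclic loess they were Ltb (0.0798), Tnfsf14 (-0.0789), Tnfsf18 (-0.0546), Tnfrsf25 (-0.0137), Tnfrsf11b (-0.10) and Tnfrsf17 (-0.0263). After median centring they were Tnfsf14 (-0.0442), Tnfsf18 (-0.0655), Tnfrsf11b (-0.065), Tnfrsf26 (-0.0274), Tnfrsf17 (-0.0084) and, of the signalling genes, Nfkbia (-0.028). Nfkb2 became 0.0252 after quantile normalization, with or without dim probe sets, and 0.0004 after cyclic loess. With 1 array left out the ranges that crossed 0 were -0.0244 to 0.0032 for Fasl, -0.0601 to 0.0053 for Ltb, -0.0078 to 0.11 for Tnfsf18, -0.0094 to 0.0682 for Tnfrsf11b, -0.12 to 0.0325 for Tnfrsf22, -0.31 to 0.0274 for Ltbr, -0.0352 to 0.39 for Tnfrsf1b and -0.11 to 0.0671 for Tnfrsf9. Apart from what each setting changes by construction, the cause was not tested.

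Same-numbered arrays deviated together with correlations of 0.25, -0.07 and -0.03, and arrays of unlike number with -0.34 to 0.32. With so few arrays, these values cannot decide whether the numbers pair the arrays. With the replicate block 4 members, 4 signalling genes and 1162 probe sets were called. Rel was the signalling call lost (adjusted p = 0.0552). The signal above background is unknown, which limits the 24 members at or below the median signal most.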
